A study of Mus musculus with 3 samples.

Results

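Thyroid hormone handling in brown adipocytes was followed through 6 genes: the deiodinase genes Dio1, Dio2 and Dio3, the thyroid hormone receptor genes Thra and Thrb, and Slc16a10, which encodes a plasma membrane transporter of aromatic amino acids and thyroid hormone. They were taken by gene symbol from the platform's probe annotation, were found as 1 probe set each, and are 6 of 19938 genes measured. The arrays came from mouse cells named DiBA, from a sample named BA, and from mouse fibroblasts. Direct conversion to brown adipocytes is the subject the series title states. The sources used here do not give the agents, culture times, strain or age behind the DiBA and BA names. BA is labelled with brown adipose tissue as its source and is also described as cultivated cells, so tissue and culture cannot be told apart for it. Each group was 1 array, so no difference has a replicate check, no p-value is given, and every comparison describes these arrays.

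Thyroid hormone circulates mostly as thyroxine, a precursor with little activity at the nuclear receptors. The enzyme encoded by Dio2 removes an iodine from the outer ring and makes the active hormone triiodothyronine inside the cell, and in brown fat this step is known to be switched on by adrenergic signalling through cyclic AMP. Dio1, best known from liver, kidney and thyroid, can also make the active hormone, while Dio3 inactivates both hormones by removing an inner-ring iodine. Thra and Thrb encode nuclear receptors that bind DNA largely as partners of retinoid X receptors. In rodent brown fat the hormone and these receptors are known to act together with adrenergic signals on heat production and on the uncoupling protein gene Ucp1.

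Sequence upstream of the deiodinase genes is shown because Dio2 is the only one of them that was called in a comparison, while Dio1 and Dio3 lay below the level at which a call could be made. Each run holds the 250 bases before the annotated start, 5′ to 3′ on the gene's own strand, from RefSeq on build GRCm38.p6. Capitals mark TGACGTCA, the full cyclic AMP response element, and TATAAA, the TATA box, both searched on both strands. The Dio2 run lies at chr12:90739039-90739288 on the minus strand, upstream of the gene, and lies inside the span of the non-coding gene Gm26512. The Dio1 run lies at chr4:107307169-107307418 on the minus strand and the Dio3 run at chr12:110278980-110279229 on the plus strand, and neither touched an annotated gene.
Dio2: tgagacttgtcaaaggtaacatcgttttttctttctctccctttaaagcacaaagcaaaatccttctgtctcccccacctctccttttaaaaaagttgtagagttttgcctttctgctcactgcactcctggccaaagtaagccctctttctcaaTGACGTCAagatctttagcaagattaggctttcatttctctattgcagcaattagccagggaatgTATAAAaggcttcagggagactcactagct
Dio1: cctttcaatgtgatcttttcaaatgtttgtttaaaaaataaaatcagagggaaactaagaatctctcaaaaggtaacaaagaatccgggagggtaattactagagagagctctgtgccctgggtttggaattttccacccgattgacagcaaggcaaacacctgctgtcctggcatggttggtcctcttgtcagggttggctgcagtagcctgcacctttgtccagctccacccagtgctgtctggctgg
Dio3: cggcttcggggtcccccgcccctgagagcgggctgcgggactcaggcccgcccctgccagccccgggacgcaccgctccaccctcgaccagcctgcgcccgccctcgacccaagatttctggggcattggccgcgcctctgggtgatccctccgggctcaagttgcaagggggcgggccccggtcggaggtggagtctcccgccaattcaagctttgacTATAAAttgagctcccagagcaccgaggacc

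The Dio2 run holds TGACGTCA from 95 to 88 bases before the start, and TATAAA from 30 to 25 bases before it. TGACGTCA was present in 508 of 32851 upstream windows of this length, or 1.55%, and TATAAA in 12.4%. The Dio3 run holds TATAAA from 31 to 26 bases before the start and no TGACGTCA, and the Dio1 run holds neither. A further motif, AGGTCA, the half-site that thyroid hormone receptors and other nuclear receptors recognise, was searched in the same way and was present in 14% of windows. None of the deiodinase runs holds it. Of 2 windows annotated for Thrb, both inside the gene's annotated span, 1 also lies inside the span of LOC115488350 and holds AGGTCA from 184 to 179 bases before its start. The other holds TATAAA from 167 to 162 bases before its start. The window of Slc16a10 holds none of these motifs, and Thra is named only. No matches overlapped in these windows. These matches describe letters in the sequence and were not measured as binding.

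The arrays were alike in scale, with median intensities of 71.5 for DiBA, 67.7 for BA and 67.8 for fibroblasts over 28943 probe sets. Values were compared as log2(intensity + 1), and a fold on this scale understates the difference of dim genes. Calls required a difference of 2-fold or more and an intensity of at least 69.2, the median of all deposited values, on the brighter array. Many intensities were exactly repeated. On all 3 arrays 33.4% of probe sets had 1 identical value, and this share was 55.4% for probe sets with a mean below 69.2 and 12.9% for the others. An exact difference of 0 is therefore frequent in this table and does not measure how alike the samples were.

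The DiBA array stood close to the BA array in markers of muscle, endothelial and immune cells, although DiBA is labelled as cultivated cells. Pvalb, a parvalbumin gene of fast muscle, had intensities of 1841 in DiBA, 2140 in BA and 42.7 in fibroblasts. Cdh5, an endothelial cadherin gene, had 1027 in DiBA, 1188 in BA and 32.6 in fibroblasts, and H2-Aa, an antigen presentation gene, had 778 in DiBA, 920 in BA and 29.0 in fibroblasts. Fibroblast markers stood further apart, with 2 of 10 called higher in DiBA than in BA. Lox, 1 of these, had 1033 in DiBA and 179 in BA. Of all 19938 genes, 194 were called higher and 0 lower in DiBA than in BA. Whether the DiBA array holds RNA of converted cells alone is not settled by the values or the labels, and each DiBA value, and the likeness of DiBA to BA, is subject to that doubt.

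Of the 6 genes, Dio2, Thra, Thrb and Slc16a10 were called higher in DiBA than in fibroblasts and the same 4 were called higher in BA than in fibroblasts, with none lower. Over all genes, 8.54% were called higher and 7.67% lower in DiBA than in fibroblasts. For BA these shares were 9.51% and 9.59%. The median log2 difference of the 6 was 1.40 for DiBA and 1.39 for BA, where the median of all genes was 0 in both. These comparisons share the fibroblast array. Between DiBA and BA, 0 of the 6 were called, against 0.973% of all genes higher and 0% lower in DiBA. Dio1 and Dio3 lay below 69.2 on each array and could not be called.

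**Figure D1:**
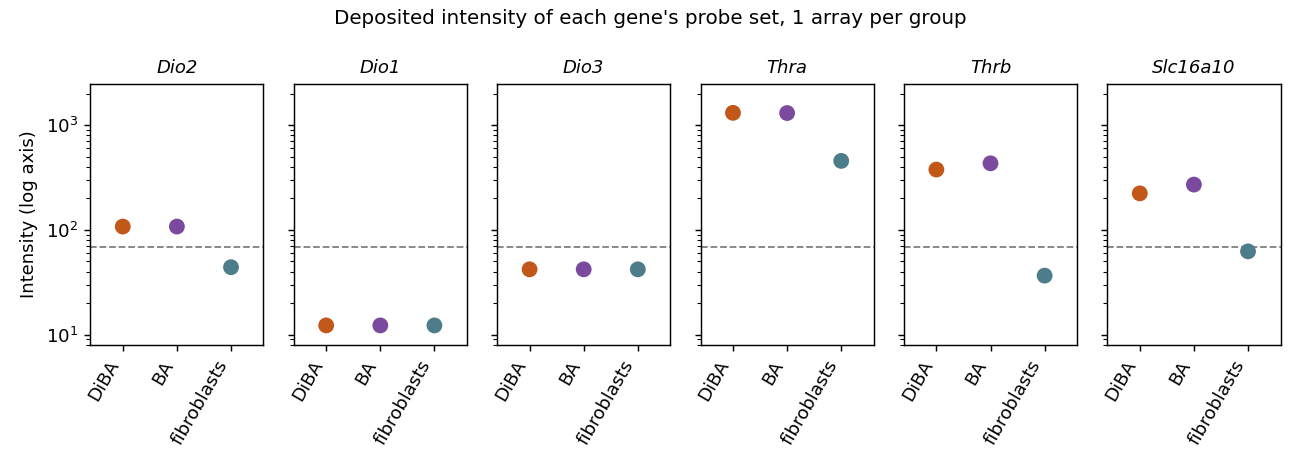
Deposited intensity on a logarithmic axis for each gene, 1 point per array, with DiBA, BA and fibroblasts from left to right; the dashed line marks 69.2. Dio2, Thra, Thrb and Slc16a10 were higher in DiBA and BA than in fibroblasts, and Dio1 and Dio3 had 1 value each on all 3 arrays. Heights are not comparable between genes, which have different probes.

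Dio2, the activating deiodinase, had an intensity of 108 in DiBA, 108 in BA and 44.0 in fibroblasts. It was thus the same to the second decimal in DiBA and BA, and lower in fibroblasts, where it lay under the median of all probe sets. The fold over fibroblasts was 2.41 in both comparisons. With intensities under 69.2 raised to 69.2, it was 1.55 and no longer reached 2-fold. The value in DiBA was held by 34 probe sets on that array and the value in BA by 17 probe sets there, whereas the fibroblast value stood alone. Values shared by at least 10 probe sets made up 36.3% of the DiBA array, 34.1% of the BA array and 30.4% of the fibroblast array. The equality of DiBA and BA for Dio2 is therefore no close measure of their likeness.

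Dio1, the deiodinase of liver and kidney, had an intensity of 12.2 on each of the 3 arrays. Dio3, the inactivating deiodinase, had an intensity of 42.0 on each. These values were also common ones, with Dio1's held by 207 probe sets on the DiBA array, 212 on BA and 195 on fibroblasts, and Dio3's by 62 on DiBA, 82 on BA and 62 on fibroblasts. Neither gene reached the level at which a difference could be called in any comparison, so a difference in either was not detectable here.

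Thra, the receptor gene known as the more widely expressed of the pair, had an intensity of 1315 in DiBA, 1309 in BA and 457 in fibroblasts. It was the only one of the 6 genes above 69.2 on all 3 arrays. The log2 difference was 1.52 for DiBA against fibroblasts and 1.52 for BA against fibroblasts, or folds of 2.88 for DiBA and 2.86 for BA. These folds did not change when low intensities were raised to 69.2. DiBA minus BA was 0.01 on the log2 scale. The spans of Thra and Nr1d1, which encodes a heme-binding repressor of the circadian clock, overlap in the annotation, and the pair is known to be transcribed from opposite strands. Nr1d1 had intensities of 1759 in DiBA, 2089 in BA and 214 in fibroblasts, a fold over fibroblasts of 8.20 for DiBA and 9.73 for BA. Nr1d1 shared with Thra the direction against fibroblasts, at larger folds, while its DiBA minus BA difference was -0.25 on the log2 scale. Its part in the Thra values was not tested. Thra is known to encode hormone-binding and non-binding forms of the receptor, and which of them its probe set reads was not determined.

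Thrb, the receptor gene known for its role in liver, pituitary and the inner ear, had an intensity of 377 in DiBA, 433 in BA and 36.6 in fibroblasts. Its folds over fibroblasts were the highest of the 6 genes, at 10.07 for DiBA and 11.55 for BA, or 3.33 for DiBA and 3.53 for BA on the log2 scale. The fibroblast value lay below 69.2, where background makes up much of an intensity. With values raised to 69.2 the folds were 5.39 for DiBA and 6.19 for BA, so the call was kept while its size moved by more than 1.5 times. DiBA minus BA was -0.20 on the log2 scale. Over all genes that passed the level filter, the central 95% of DiBA minus BA differences ran from -0.34 to 0.81.

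Slc16a10, the transporter gene, had an intensity of 223 in DiBA, 271 in BA and 62.4 in fibroblasts. Both were above fibroblasts, by 1.82 on the log2 scale for DiBA and 2.10 for BA, or folds of 3.54 for DiBA and 4.29 for BA. With low values raised to 69.2 the folds were 3.20 for DiBA and 3.88 for BA. The log2 difference of DiBA minus BA was -0.28, inside the same central range of all genes. The order DiBA below BA held for Thrb and Slc16a10, while Thra stood at 0.01 as deposited, at -0.07 with arrays centred on their medians and at -0.01 with quantile normalization, so its sign is not settled. With no replicates it cannot be said which of these neighbouring levels differ beyond their spread. An order of DiBA below BA was not particular to Thrb and Slc16a10. The median of DiBA minus BA was -0.12 for brown adipocyte, -0.19 for skeletal muscle and -0.29 for endothelial markers. It was 0.34 for fibroblast markers and 0 for all genes.

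**Figure D2:**
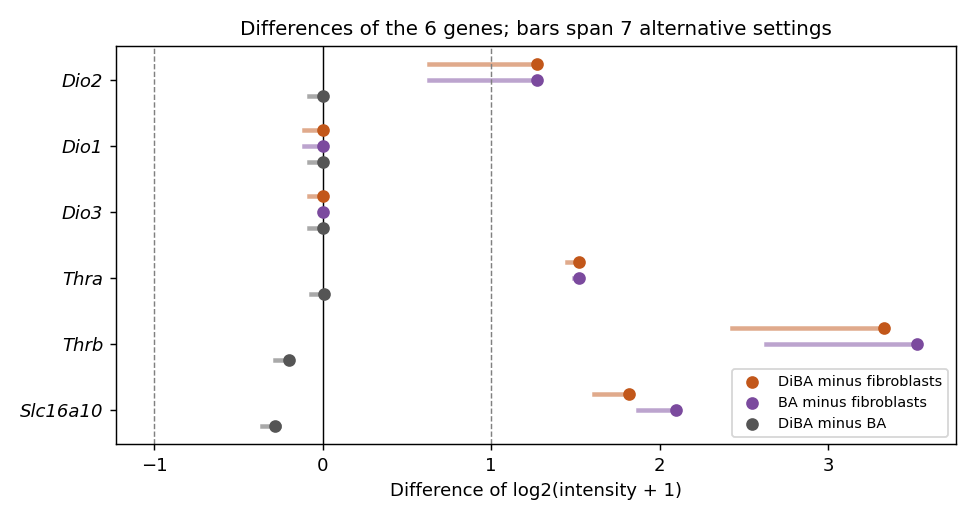
Log2 difference of each gene in the 3 comparisons (points), with bars from the lowest to the highest value over 7 alternative settings and dashed lines at 2-fold. Thra, Thrb and Slc16a10 stayed beyond 2-fold against fibroblasts under each setting, Dio2 ran down to 0.63, and the DiBA minus BA differences lay between -0.36 and 0.01. The settings of the level filter and the brightest probe set could not change a difference, so the bars reflect the other settings only.

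The genes nearest to each of these patterns were found by the Euclidean distance of log2 values over the 3 arrays, each gene centred on its own mean, among 11207 genes. For Dio2 they were Ebf1, which encodes a transcription factor, at 0.009, then Larp1b at 0.014 and Lum, which encodes a matrix proteoglycan, at 0.014. For Thra they were Fgd4 at 0.005, the chemokine receptor gene Ccr2 at 0.006 and Bcap29 at 0.008. For Thrb they were Mcrip2 at 0.006, Fmo2 at 0.021 and Epas1, which encodes a hypoxia-inducible transcription factor, at 0.021. For Slc16a10 they were the histidine breakdown gene Hal at 0.015, the ATP synthase subunit gene Atp5e at 0.020 and Timm21 at 0.021. Within a distance of 0.1 lay 87 genes for Dio2, 46 for Thra, 33 for Thrb and 87 for Slc16a10, so with 3 arrays a near match is common.

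Other carriers that can move thyroid hormone across membranes did not share 1 direction. Of 12 measured, 2 were called higher and 3 lower both in DiBA and in BA against fibroblasts. All genes had 8.54% higher and 7.67% lower in DiBA, and 9.51% higher and 9.59% lower in BA. The median difference of the 12 was 0 in each, where all genes also had 0. Slc7a5, the light chain of an amino acid exchanger that also carries thyroid hormone, had intensities of 161 in DiBA, 66.3 in BA and 1835 in fibroblasts. It was the lowest of the 12 relative to fibroblasts, at -3.50 for DiBA and -4.77 for BA, and it was 2.41-fold higher in DiBA than in BA. Its heavy chain gene Slc3a2 was lower too, at -1.18 for DiBA and -1.49 for BA. Slco3a1, an organic anion transporter gene, lay at -1.17 for DiBA and -1.53 for BA.

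In the other direction, Slc7a8, which encodes another light chain of that exchanger family, had intensities of 319 in DiBA, 371 in BA and 135 in fibroblasts, with log2 differences from fibroblasts of 1.23 for DiBA and 1.45 for BA. Slco2b1, an organic anion transporter gene, had intensities of 138 in DiBA, 178 in BA and 30.0 in fibroblasts, with differences of 2.17 for DiBA and 2.53 for BA. Its fold over fibroblasts in DiBA was 1.99 with low values raised to 69.2, which ends that call. Slco1c1, Slco1a1, Slco1a4, Slc10a1 and Slc17a4 each had 1 value on all 3 arrays, and each lay below 69.2.

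Among 7 measured genes of hormone binding and of other hormone-modifying enzymes, 1 was called higher in each comparison with fibroblasts and 0 lower. With 8.54% of all genes called higher in DiBA and 9.51% in BA, 1 call among 7 is no result about this list. The called gene was Sult1a1, which encodes a phenol sulfotransferase, with intensities of 269 in DiBA, 301 in BA and 12.4 in fibroblasts. Its log2 difference was 4.34 for DiBA and 4.50 for BA, and with low values raised to 69.2 the folds were 3.85 for DiBA and 4.30 for BA. Ttr and Serpina7, the genes of plasma carrier proteins, Iyd, the iodotyrosine deiodinase gene, and Crym, the gene of an intracellular hormone-binding protein, had identical values on all 3 arrays, each below 69.2.

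Deiodinases carry selenocysteine in their active site, so the genes that make and use this amino acid were set beside them. Of 14 measured, 3 were called higher in DiBA than in fibroblasts and 0 lower, with a median of 0.27. BA had 3 higher genes and 1 lower gene, and a median of 0.44. For all genes, the shares called higher were 8.54% in DiBA and 9.51% in BA. The share lower in BA did not exceed the 9.59% of all genes, so it is no result about this list. Sephs2, which makes the selenium donor for selenocysteine synthesis, had intensities of 717 in DiBA, 850 in BA and 199 in fibroblasts, with log2 differences of 1.84 for DiBA and 2.09 for BA. The other genes called higher encode selenoproteins, Selenop, a secreted selenium carrier, at 3.84 for DiBA and 3.95 for BA, and Gpx4, a lipid peroxide reductase, at 2.40 for DiBA and 2.63 for BA. Sephs1, a paralogue of Sephs2, lay at -0.86 for DiBA and at -1.13 for BA, which passed 2-fold in BA alone. DiBA minus BA for this gene was 0.27.

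The Dio2 enzyme is known to be removed by ubiquitination and rescued by deubiquitinases. Of 11 genes of that machinery, 0 were called higher and 1 was called lower in both comparisons, with medians of 0 for DiBA and -0.01 for BA. That share is near the 7.67% of all genes lower in DiBA and the 9.59% lower in BA, so it is no result about this list. The lower gene was Wsb1, the adaptor that brings the Dio2 enzyme to a ubiquitin ligase, with intensities of 218 in DiBA, 135 in BA and 992 in fibroblasts. The log2 differences from fibroblasts were -2.18 for DiBA and -2.86 for BA, and DiBA was 1.61-fold above BA. None of the 11 was called between DiBA and BA, where 0.973% of all genes were called higher in DiBA and 0% lower.

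Of 26 measured receptor partners and coregulators, 4 were called higher and 2 lower in each comparison with fibroblasts, with a median of 0. Among all genes, 8.54% were called higher in DiBA and 9.51% in BA. The lower share is near the 7.67% of all genes for DiBA and no higher than the 9.59% for BA, so it is no result about this list. Rxrg, a retinoid X receptor gene, had intensities of 385 in DiBA, 451 in BA and 70.5 in fibroblasts, at 2.43 for DiBA and 2.66 for BA on the log2 scale. The coactivator genes Ppargc1a and Ppargc1b lay at 3.47 and 2.64 in DiBA and at 3.63 and 2.94 in BA. The other higher gene was Nr1d1, described above as a clock repressor gene that overlaps Thra, so the higher count is not one of receptor partners alone. With low values raised to 69.2, Ppargc1a was 7.28-fold higher in DiBA and 8.16-fold higher in BA. The lower genes were the arginine methyltransferase genes Carm1, at -1.27 in DiBA and -1.45 in BA, and Prmt1, at -1.36 in both.

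Known thyroid hormone response genes showed the widest range. Of 31 measured, 17 were called higher and 1 lower in DiBA than in fibroblasts, with a median of 1.76. BA had 17 higher and 2 lower genes, and a median of 1.83. The shares of all genes were 8.54% higher and 7.67% lower for DiBA, and 9.51% higher and 9.59% lower for BA. The lower counts of the list stayed below those shares. The list holds Thrb and Dio1 themselves, and most of its higher members also belong to the lipid and energy metabolism of adipocytes. Whether thyroid hormone or other regulators set their levels here was not tested. Ucp1, the uncoupling protein gene, lay at 7.55 in DiBA and 7.67 in BA. Thrsp, a regulator of lipogenesis named for its response to thyroid hormone, had intensities of 5081 in DiBA, 5496 in BA and 29.2 in fibroblasts, with folds of 72.4 for DiBA and 78.3 for BA when low values were raised to 69.2. Pck1, a glyceroneogenic enzyme gene, lay at 6.46 in DiBA and 6.66 in BA. Pdk4, which encodes a mitochondrial kinase, lay at 5.94 in DiBA and 6.04 in BA, and Acacb, an acetyl-CoA carboxylase gene, at 5.22 in DiBA and 5.40 in BA. Mlxipl, a carbohydrate-responsive transcription factor gene, lay at 4.26 in DiBA and 4.48 in BA. Of these, Ucp1, Pck1, Acacb and Mlxipl also had fibroblast values under 69.2, and raising them gave DiBA folds of 65.6 for Ucp1, 58.9 for Pck1, 32.5 for Acacb and 12.6 for Mlxipl.

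In all, 12 response genes were called in none of the comparisons. Klf9, Hr, Rcan2 and Bcl3, known as response genes in tissues other than fat, are named here by a choice made after seeing their values. Klf9, a transcription factor gene, had intensities of 734 in DiBA, 806 in BA and 449 in fibroblasts, or 1.63-fold above fibroblasts in DiBA and 1.79-fold in BA. Hr, a corepressor gene of brain and skin, had 71.7 in DiBA, 81.3 in BA and 71.7 in fibroblasts. Rcan2, a calcineurin regulator gene, had 79.5 in DiBA, 92.3 in BA and 111 in fibroblasts, and Bcl3 had 207 in DiBA, 182 in BA and 182 in fibroblasts. None of these passed 2-fold in a comparison. Between DiBA and BA, 0 of the 31 response genes were called, with a median of -0.14. Calls were rare in this comparison, with 0.973% of all genes higher and 0% lower in DiBA.

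**Figure D3:**
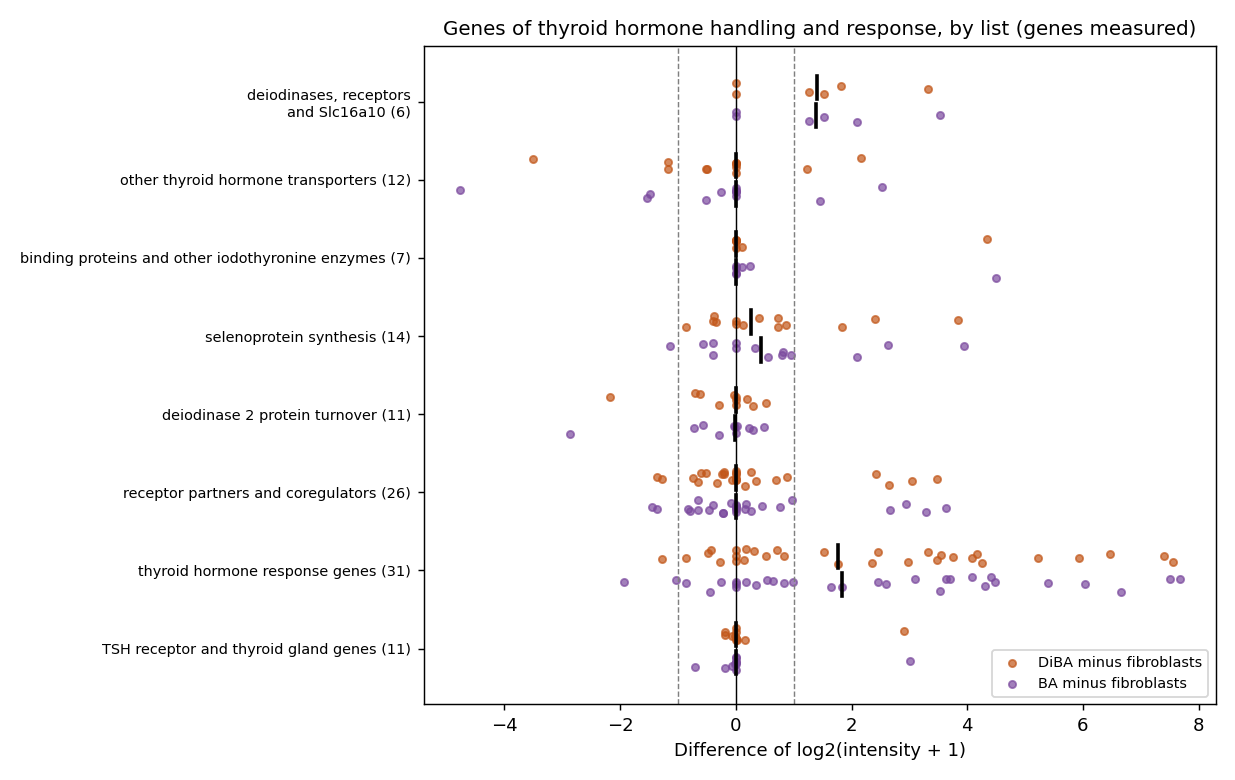
Log2 difference from fibroblasts of each measured gene, by list, for DiBA (upper row of each list) and BA (lower row), with black ticks at the list medians and dashed lines at 2-fold. Response genes reached from -1.94 to 7.67 in BA, where Ucp1 was the highest, and the lists other than the 6 genes and the response genes had medians between -0.01 and 0.44.

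Tshr, the receptor gene for thyroid-stimulating hormone, which is also known from adipocytes, had intensities of 221 in DiBA, 235 in BA and 28.4 in fibroblasts. With low values raised to 69.2 it was 3.16-fold higher in DiBA and 3.37-fold higher in BA. Of 11 measured genes of the thyroid gland list, Tshr alone was called. For all genes, the shares called higher were 8.54% in DiBA and 9.51% in BA, so this count is no result about the list. Of the 11, 9 lay below 69.2 in DiBA, 9 in BA and 10 in fibroblasts, thyroglobulin's gene Tg among them on each array.

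Marker lists of brown adipocytes, skeletal muscle, endothelium and immune cells were also higher in DiBA and BA than in fibroblasts, while fibroblast markers were lower. Summed intensity of 9 brown adipocyte markers was 28679 in DiBA, 29838 in BA and 511 in fibroblasts, with all 9 called higher in DiBA and in BA. With low values raised to 69.2, 8 were called higher in each. Between DiBA and BA, 1 of the 9 was called, Prdm16, which was 4.85-fold higher in DiBA. For comparison with these counts against fibroblasts and those below, 8.54% of all genes were called higher in DiBA and 9.51% in BA. Summed intensity of 10 fibroblast markers was 7771 in DiBA, 4202 in BA and 31706 in fibroblasts. Markers of skeletal muscle, a tissue also known for thyroid hormone receptors, summed to 11145 in DiBA, 12724 in BA and 1158 in fibroblasts, with 9 of 10 called higher in both. Endothelial markers summed to 3480 in DiBA, 4178 in BA and 674 in fibroblasts, with 9 of 10 called higher in DiBA and 10 in BA. With low values raised to 69.2, 8 endothelial markers were called higher in DiBA and 10 in BA. Macrophage and immune markers summed to 4781 in DiBA, 4898 in BA and 1128 in fibroblasts, with 9 of 10 called higher in DiBA and 8 in BA. With low values raised to 69.2, 8 of these were called higher in DiBA and 7 in BA. Of 3 erythrocyte markers, 1 was called higher, and sums were 366 in DiBA, 446 in BA and 123 in fibroblasts. The part of these cell types in the levels of Dio2, Thra, Thrb and Slc16a10 was not tested, and a larger number of cells of a type cannot be told apart from more RNA per cell. Hepatocyte markers were below 69.2 on each array, for all 9 measured, with sums of 358 in DiBA, 362 in BA and 333 in fibroblasts.

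**Figure D4:**
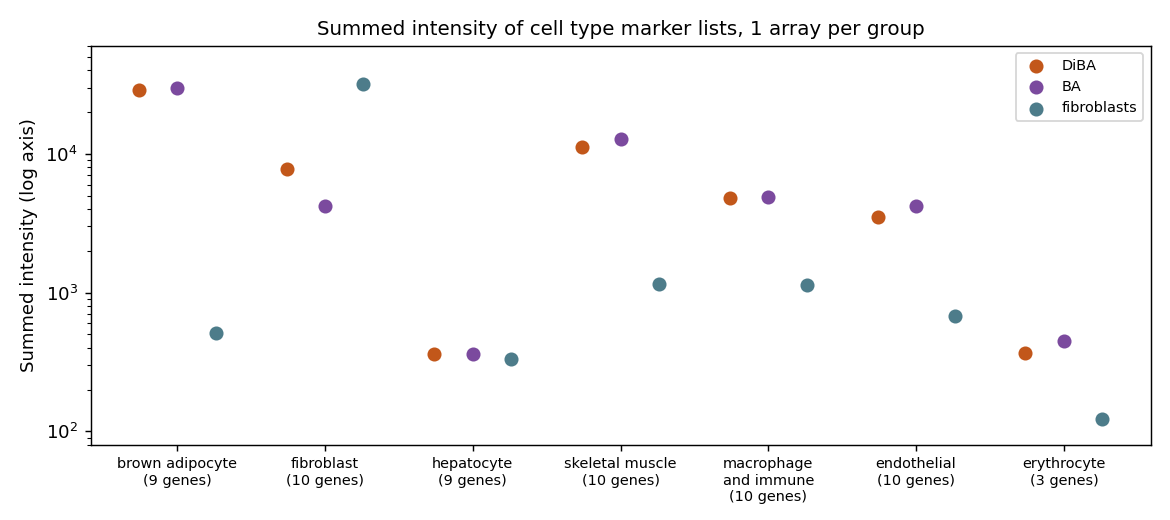
Summed intensity of each marker list on a logarithmic axis, with DiBA, BA and fibroblasts from left to right within a list. Brown adipocyte, skeletal muscle, macrophage and endothelial lists were higher in DiBA and BA than in fibroblasts, the fibroblast list was lower, and the hepatocyte list lay between 333 and 362.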

How the data were processed

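RNA of 3 mouse samples was hybridised to Affymetrix arrays of 1 colour, 1 array per group, and groups follow the sample titles. The deposited values are linear intensities per probe set. Per the submitters' processing notes, the authors used Affymetrix Expression Console; version, summarization and normalization: not given in the sources used here. Of 28943 probe sets, 21789 had 1 gene symbol in the platform annotation, 1621 had several and named no gene, and 5533 were unnamed. Log2 values of several probe sets were averaged per gene. All 6 genes kept their symbol in RefSeq (GRCm38.p6). Calls across all genes used 2-fold, a pseudocount of 1 and a level filter at the median intensity. The genes and lists were chosen with earlier results of these data known. All 6 genes were named. Of each list, up to 6 called members with the largest differences were eligible. With 1 array per group, no test was possible and precision is limited by the number of arrays. Analyses used Python 3.11.15, numpy 2.4.6 and pandas 2.3.3.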

Additional observations from a re-analysis of the deposited data

How the results depend on the processing

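Alternatives were arrays centred on their medians, quantile-normalized arrays, no level filter, a filter at the 75th percentile (246.0), low intensities raised to the median, a pseudocount of 16, and the brightest probe set per gene. Of 126 differences of single genes, 121 stayed on their side of the 2-fold call and 5 lost the call. Of the called ones, 0 changed sign. Part of the 121 was fixed in advance. Each of the 6 genes has 1 probe set, so the brightest probe set returned the same values. Removing the level filter could not end a call. Dio1 and Dio3 lay below the filter with differences of 0, so a call for them was hardly possible. The count of 121 therefore overstates how often a call was put to a test. Of the uncalled differences, Thra in DiBA minus BA, at 0.01, became -0.07 with centred arrays and -0.01 with quantile normalization. Some exact zeros of Dio1, Dio2 and Dio3 became small negative values down to -0.11. With the stricter filter, Dio2 (1.27 in both comparisons with fibroblasts) and Slc16a10 in DiBA (1.82) were no longer called, since the filter asks for a brighter array. This left 2 of the 6 called higher in DiBA than in fibroblasts. With low intensities raised, Dio2 lay at 0.63 in both comparisons. Between DiBA and BA, 76 genes were called higher with the stricter filter, and 1 was called lower without a filter. The count of genes called kept within 1.5 times under the other alternatives. No replicate could be left out, and no paired analysis was possible because each group holds 1 array. Fibroblast intensities of Dio2, Thrb and Slc16a10 near or below the median limit the size of their folds.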
